A study of Mus musculus with 12 samples.

Results

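Hepatic ischemia-reperfusion injury (hIRI) was followed in an organ that had not itself been made ischemic, the kidney. The comparison covered here is the effect of hIRI on kidney RNA over both diets: the mean of the HFD + hIRI and ND + hIRI groups was set against the mean of the HFD + sham and ND + sham groups, each group weighted equally. All 12 of the 12 kidney libraries entered it, 3 per group. Every group was made of wild-type male C57BL/6 mice that were 10 weeks old when a 12-week diet began, either a diet rich in fat and sucrose (HFD) or a normal control diet (ND). In the hIRI groups the blood supply of the left lateral and right median lobes of the liver was clamped for 60 min, the sham groups had a sham procedure, and kidneys were taken 6 h later. The contrast therefore holds the response to partial liver ischemia averaged over both diets at a single early time, in whole-kidney RNA, in mice of 1 strain and sex. A gene can be called in it without responding alike in each diet.

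After an insult elsewhere in the body the kidney receives cytokines, free heme, nucleic acids and metabolites from the blood, and its tubule cells can answer them directly. IL-6 family cytokines act through the shared receptor subunit gp130 and the transcription factor STAT3, which together with C/EBP factors switch on acute phase genes. Stressed tubule cells switch on immediate early genes of the AP-1 family, injury markers and genes of repair, while the transporters and identity factors of the differentiated nephron are commonly reduced in acute kidney injury.

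The libraries held 20874584 to 29451344 assigned reads. The kidney identity of the samples was clear in every library, with Kap, an androgen-regulated protein of the proximal tubule, at 11468 CPM (normalised counts, scaled to library size) or more and Umod, the uromodulin gene of the thick ascending limb, at 3654 CPM or more. The hIRI kidneys did not form a tight group. On the first principal component of all genes, which held 54.4% of the variance, the HFD + hIRI libraries lay at 97.4, 44.9 and 19.4 and the ND + hIRI libraries at -26.0, 15.7 and 22.5, against -18.5, -27.1 and -19.4 for HFD + sham and -36.3, -34.7 and -37.9 for ND + sham. ND + hIRI replicate 1 thus lay among the sham kidneys and HFD + hIRI replicate 1 lay farthest from them, so counts are also given without them. The label of ND + hIRI replicate 1 was kept as given and could not be checked against the files, which bears on every value on ND and over both diets. The library numbers in the labels fall into a lower and a higher run, and all 3 HFD + hIRI libraries and 8 of the 12 libraries in all belong to the higher one. HFD + sham replicates 1 and 2 belong to the lower run and replicate 3 to the higher, so run and surgery are partly confounded on HFD. A fit of the higher run alone therefore holds replicate 3 as its only HFD + sham library. What the runs stand for is not given in the sources used here.

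Hepatic ischemia changed the kidney transcriptome in both directions. By edgeR's quasi-likelihood test with Benjamini-Hochberg adjustment, 3345 of 14091 genes (23.7%) passed an adjusted p of 0.05, with 1814 higher (12.9%) and 1531 lower (10.9%) in hIRI kidneys. The median log2 fold change was 0.54 among the genes called higher and -0.63 among those called lower, against 0.0017 over all genes. At least a 2-fold change was seen for 399 of the higher and 283 of the lower genes, and at least an 8-fold change for 36 of the higher and 2 of the lower genes. The balance of directions depended on the scaling of the libraries, with 1814 higher and 1531 lower under TMM scaling (54.2% higher), 1302 and 1974 under upper quartile scaling (39.7% higher), and 1114 and 2441 under library totals alone (31.3% higher), where the median of all genes was -0.11. All 3345 genes kept their direction under each of these scalings.

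Both diets contributed to these calls. The fold change had the same sign on HFD and on ND for 3313 of the 3345 called genes (99.0%), against 73.1% of all genes, although the contrast itself favours genes that move the same way in both. HFD + hIRI against HFD + sham and ND + hIRI against ND + sham share no library, so choosing genes on HFD does not fix their sign on ND. Both tests use the same estimate of the spread of each gene over all groups. Shares that rest on a p-value on ND are therefore not free of that choice. Of the 2801 genes called on HFD (19.9% of all genes, 1607 higher and 1194 lower), 2549 (91.0%) had the same sign on ND, and 771 (27.5%) also had an unadjusted p under 0.05 there in the same direction, against 13% of all genes. With the library number run as a covariate only 18 genes were called on HFD. Of the 2801, 7 had such a p on ND in the opposite direction. Leaving out HFD + hIRI replicate 1, 2 or 3 left 1100, 1404 or 4742 genes called on HFD, and leaving out HFD + sham replicate 1, 2 or 3 left 276, 1 or 45. On ND alone, 0 of 14091 genes (0%) passed the adjusted threshold by edgeR's quasi-likelihood test, where the smallest adjusted p was 0.112, while 2030 had an unadjusted p under 0.05. On the same ND contrast edgeR's likelihood ratio test called 340 genes, DESeq2 444, limma voom 0 and limma voom with quality weights 696. The quasi-likelihood test called 531 genes on ND without ND + hIRI replicate 1, 88 without HFD + hIRI replicate 1 and 2322 without both. An unadjusted p under 0.05 in the same direction in each diet was reached by 1172 genes (8.32%), of which 664 were higher and 508 lower. The response was larger on HFD for 2758 of the 3345 called genes, and the median log2 fold change of the genes called higher was 0.68 on HFD and 0.38 on ND.

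**Figure D1:**
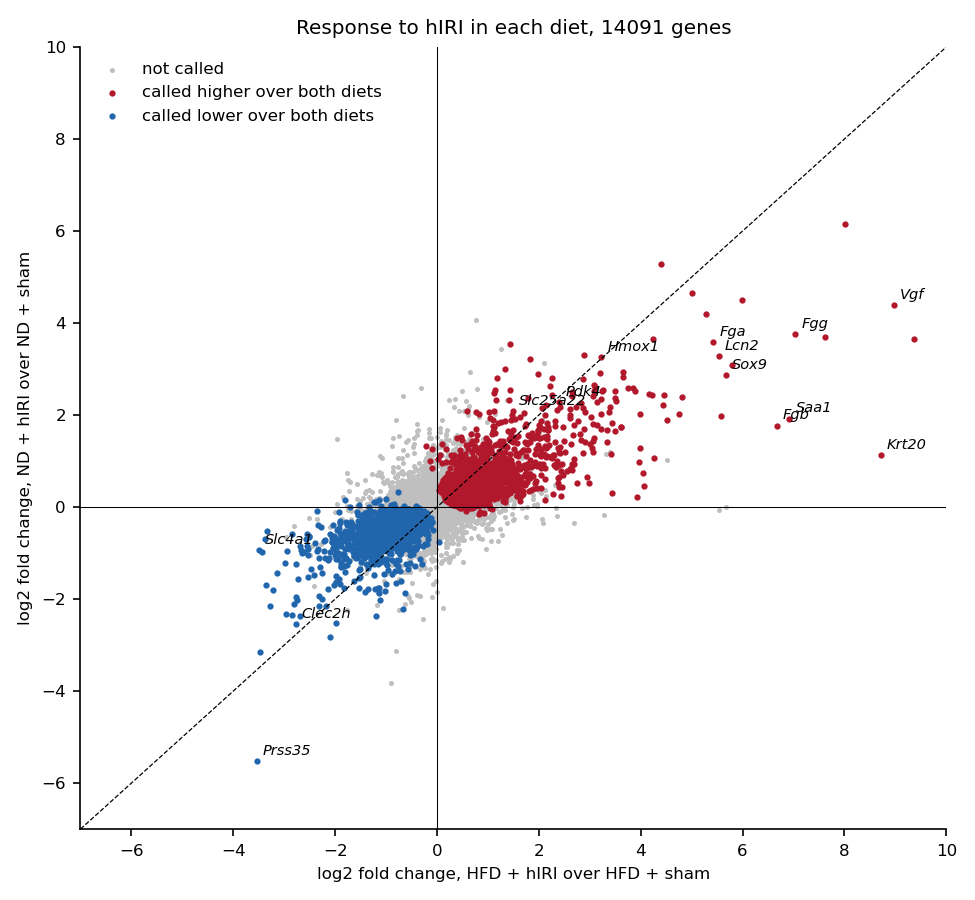
Log2 fold change of each of 14091 genes, HFD + hIRI over HFD + sham on the horizontal axis and ND + hIRI over ND + sham on the vertical axis. Red points were called higher and blue points lower over both diets, grey points were not called, and the dashed line marks an equal response, so most called genes lie in the lower left and upper right corners and closer to the HFD axis.

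The hIRI libraries took unequal parts in this response. Of the 1814 genes called higher, 97.7%, 96.9% and 91.0% lay above all 6 sham kidneys in HFD + hIRI replicates 1, 2 and 3, and 27.0%, 78.0% and 87.9% did so in ND + hIRI replicates 1, 2 and 3. The shares of the 1531 genes called lower that lay below all 6 sham kidneys were 95.9%, 96.0% and 92.5% in the HFD + hIRI kidneys and 31.7%, 72.8% and 83.0% in the ND + hIRI kidneys. These libraries also chose the genes, so the shares describe how far each kidney took part. The 6 hIRI and 6 sham kidneys did not overlap at all for 342 genes that were higher (2.43%) and 341 that were lower (2.42%), and 631 of these 683 genes were called.

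The number of calls depended on single libraries. It was 1858 without ND + sham replicate 1, 1729 without ND + sham replicate 3, 1936 without ND + hIRI replicate 2, 1394 without ND + hIRI replicate 3, and 1829, 1410 and 1522 when HFD + sham replicate 1, 2 or 3 was left out. It was 4307 without ND + hIRI replicate 1, 3040 without HFD + hIRI replicate 1 and 4636 without both. With the library number run as a covariate 1226 genes were called, of which 1184 were among the 3345, and in the 8 libraries of the higher run alone 4 were called, namely Fga, Fgg, Lpo and Ptgfr (3166 at an unadjusted p under 0.05), all with an adjusted p of 0.045. Ptgfr, a prostaglandin F receptor, is named here after its values were seen. All 3345 called genes kept their direction in each of these fits. Sizes moved with single libraries too. Without HFD + hIRI replicate 1 the log2 fold change was 3.76 for Areg, 3.50 for Fosl1, 1.91 for Krt20, 4.10 for Saa3, 3.76 for Lcn2, 2.52 for Gdf15, 2.41 for Selp, 2.41 for Cdkn1a, 1.68 for Il1r2, 1.82 for Trem1, 1.57 for Oasl1, 1.25 for Havcr1 and -5.21 for Prss35. It was 3.70 for Saa3, 2.47 for Hmox1 and 1.28 for Oasl1 without ND + hIRI replicate 2, 3.57 for Sox9 and 2.66 for Lif without ND + hIRI replicate 3, and -3.08 for Slc4a1 without ND + hIRI replicate 1. Leaving out sham kidneys gave 5.16 for Saa1 (HFD + sham replicate 1) and 5.69 for Ankrd2 (ND + sham replicate 2). Any other gene described below as rising or falling lost its call in the higher run alone, and kept it whichever of the 12 libraries was left out unless stated. With the library number run as a covariate, only 166 of the 262 called genes that the naming rule chose kept their call. Which genes these were is mostly not given below.

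Among 31 pathway lists that together held 1037 measured members, 380 members (36.6%) were called, beside 23.7% of all genes. The lists were chosen with earlier results of these data known, so a share above that of all genes may be partly built in. The shares of each list stand beside 12.9% higher and 10.9% lower of all genes. AP-1 and immediate early genes, IL-6 family signaling, acute phase proteins, ribosome biogenesis and tubular injury genes held the largest shares of members called higher, and transport genes of the loop and distal nephron, identity factors of the tubule and transporters of the proximal tubule the largest shares called lower. Members of a list are related genes and lists overlap, so these shares are descriptions. With the library number run as a covariate 188 list members were called. Pathway lists described below without such a count also held fewer calls. Members higher went from 22 to 7 for the unfolded protein list, 13 to 4 for NF-kB and 15 to 6 for EGF receptor ligands. They went from 8 to 2 for C/EBP, STAT and IRF factors and from 26 to 12 for ribosome biogenesis. Proximal tubule transporters lower went from 14 to 7, and metal and iron genes higher from 9 to 8.

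**Figure D2:**
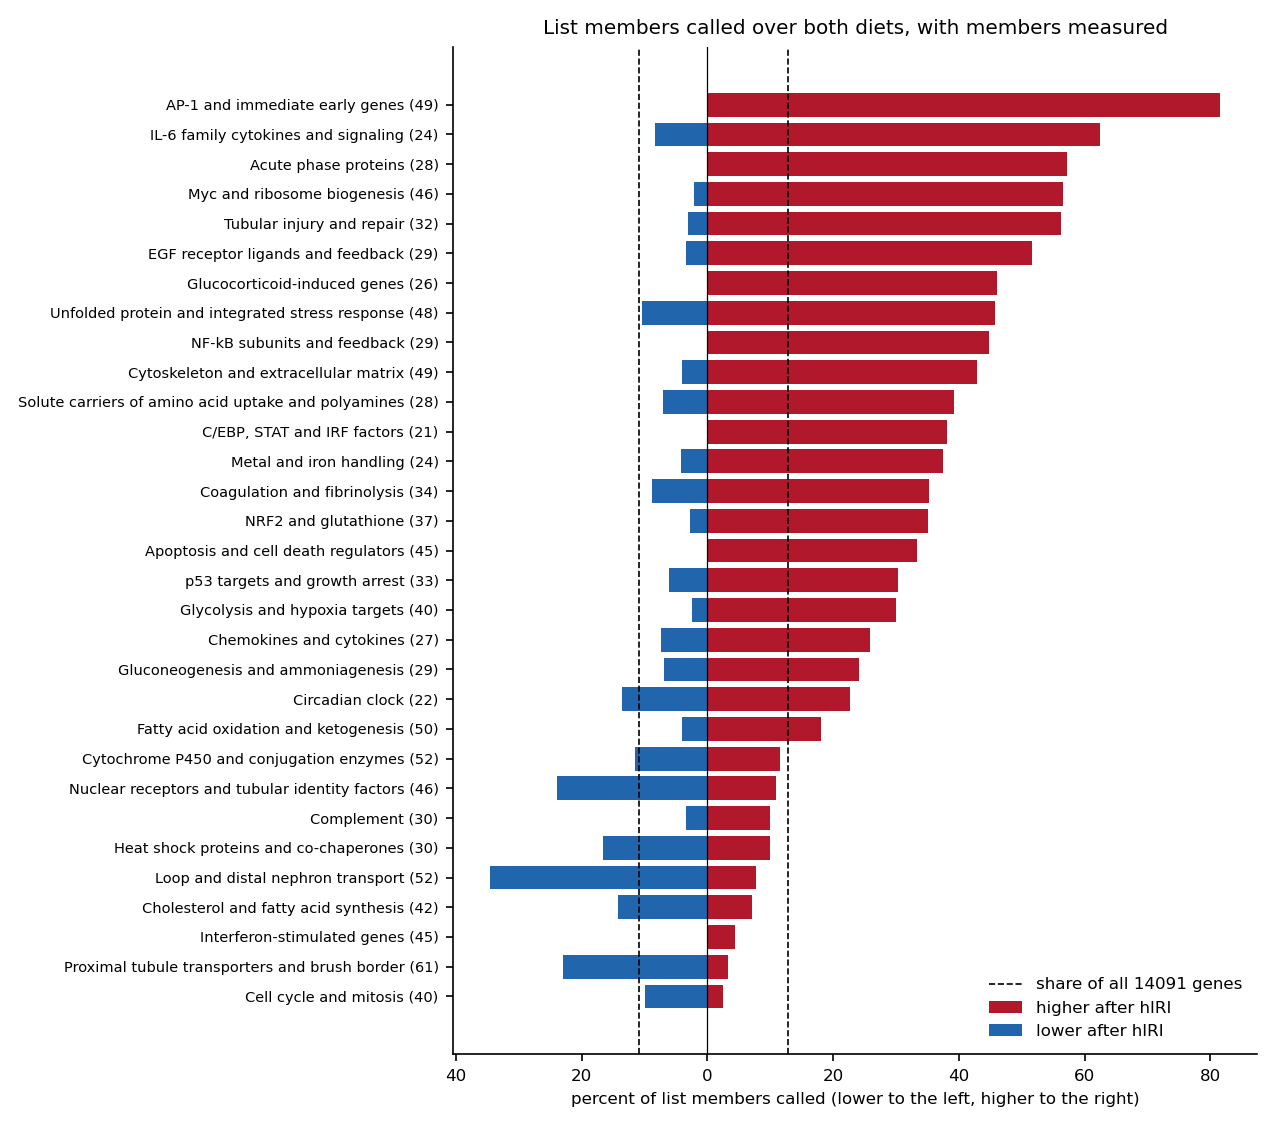
Percent of the measured members of each of 31 gene lists that were called over both diets, higher after hIRI to the right and lower after hIRI to the left, with the number of measured members in parentheses. The dashed lines mark the 12.9% and 10.9% of all 14091 genes, and the bars for AP-1 and immediate early genes (40 of 49 higher) and for loop and distal nephron transport (18 of 52 lower) extend farthest from them on their sides.

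Acute phase genes had the largest median rise of the 31 lists. Of the acute phase list 16 of 28 measured members were higher and 0 lower, with a median log2 fold change of 2.05 over both diets (1.98 on HFD and 1.49 on ND). The 3 chains of fibrinogen, the clotting protein that the liver secretes in the acute phase response, are encoded side by side on chromosome 3 in mm10, Fgg at chromosome 3, 83007896 to 83015049, plus strand, Fga at chromosome 3, 83026153 to 83033617, plus strand, and Fgb at chromosome 3, 83042305 to 83049790, minus strand. Fga, the alpha chain, had 4161, 3291 and 2282 CPM in HFD + hIRI kidneys and 65.9, 873 and 709 CPM in ND + hIRI kidneys, against 52.7, 64.3 and 110.0 CPM in HFD + sham kidneys and 38.4, 60.6 and 38.7 CPM in ND + sham kidneys. All hIRI kidneys but ND + hIRI replicate 1, which lay within the sham range, were far above every sham kidney. Fga thus had a log2 fold change of 4.50 (SE 0.54, adjusted p = 0.00433), where SE is the standard error. Fgg, the gamma chain, had 2747, 2377 and 1345 CPM in HFD + hIRI kidneys and 19.9, 208 and 339 CPM in ND + hIRI kidneys, against 12.9, 13.2 and 23.4 CPM in HFD + sham kidneys and 10.8, 10.7 and 20.3 CPM in ND + sham kidneys, again with ND + hIRI replicate 1 inside the sham range and a log2 fold change of 5.40 (SE 0.60, adjusted p = 0.00433). Fgb, the beta chain, had 470.3, 266 and 132 CPM in HFD + hIRI kidneys and 6.3, 9.68 and 13.2 CPM in ND + hIRI kidneys, against 2.99, 2.44 and 3.07 CPM in HFD + sham kidneys and 3.46, 2.32 and 2.73 CPM in ND + sham kidneys. Here all 6 hIRI kidneys lay above all 6 sham kidneys, ND + hIRI replicate 1 included, and the log2 fold change was 4.22 (SE 0.32, adjusted p = 0.00059).

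Serum amyloid A, lipocalin 2 and the glycoprotein Lrg1 followed the same pattern. Lrg1 had 400.1, 169.9 and 73.4 CPM in HFD + hIRI kidneys and 11.9, 34.9 and 35.1 CPM in ND + hIRI kidneys, against 9.38, 9.35 and 11.1 CPM in HFD + sham kidneys and 4.86, 6.88 and 5.74 CPM in ND + sham kidneys, with no overlap of hIRI and sham kidneys and a log2 fold change of 3.33 (SE 0.41, adjusted p = 0.00433). Lcn2, which encodes the iron-chelating protein NGAL used as a marker of kidney injury, had 1389, 362 and 157 CPM in HFD + hIRI kidneys and 15, 99.6 and 103 CPM in ND + hIRI kidneys, against 16.7, 8.49 and 16 CPM in HFD + sham kidneys and 6.85, 7.3 and 8.13 CPM in ND + sham kidneys. All hIRI kidneys but ND + hIRI replicate 1 lay above the sham range, and the log2 fold change was 4.41 (SE 0.62, adjusted p = 0.00487). Saa1, an acute phase apolipoprotein, rose by a log2 fold change of 4.42 (SE 0.61, adjusted p = 0.0046) with no overlap, and Saa3, a form also made outside the liver, by 4.82 (SE 0.96, adjusted p = 0.0109). Saa1 and Saa2 are near-identical in sequence, so the split of reads between them is uncertain. Smaller rises were those of Cp, the ferroxidase ceruloplasmin, at a log2 fold change of 0.66 (adjusted p = 0.00601), and Steap4, a metalloreductase induced by inflammation, at 1.54 (adjusted p = 0.0265). The call of Steap4 was lost without ND + sham replicates 1 or 3, ND + hIRI replicate 2, HFD + sham replicates 1, 2 or 3 or HFD + hIRI replicate 1.

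**Figure D3:**
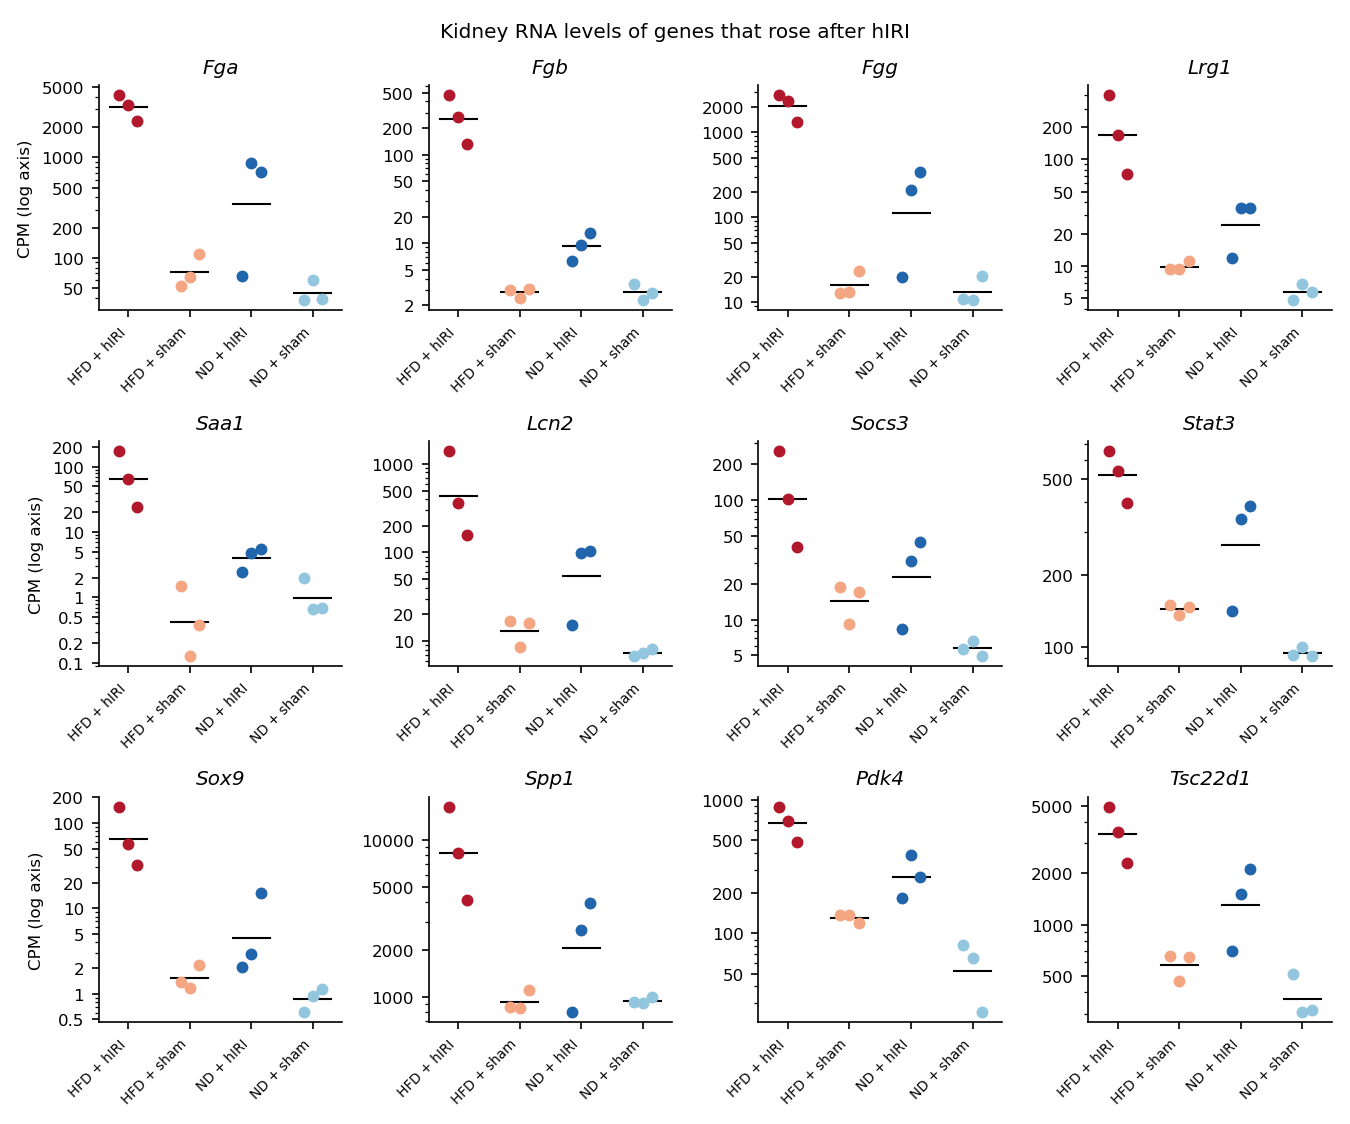
CPM (log axis) of 12 genes that rose after hIRI, by group, with 1 point per library and a line at the geometric mean of the 3 libraries. The 3 HFD + hIRI points lie highest in every panel but Socs3, where the highest ND + hIRI point passes the lowest of them, and the lowest ND + hIRI point, replicate 1, lies close to the sham points for Fga, Fgg, Lcn2, Stat3 and Spp1 but above them all for Fgb, Lrg1, Saa1, Pdk4 and Tsc22d1.

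Genes restricted to the liver were counted beside the acute phase genes. Of 14 hepatocyte markers 9 were in the table, their summed level was 107 to 374 CPM in hIRI kidneys and 200.5 to 398 CPM in sham kidneys, and 1 of the 9 was called, a share near the 12.9% of all genes called higher. This was Apoa1, higher at a log2 fold change of 1.12 (adjusted p = 0.0437), a call lost without ND + sham replicates 2 or 3, ND + hIRI replicates 1 or 3, HFD + sham replicates 1, 2 or 3 or HFD + hIRI replicates 1 or 3. Alb, the albumin gene, averaged 17.3 ± 1.54 CPM in HFD + hIRI kidneys and 17 ± 3.96 CPM in HFD + sham kidneys, and 23.3 ± 20.4 CPM in ND + hIRI and 19.2 ± 2.35 CPM in ND + sham kidneys (SD, n = 3 each), and was not called (adjusted p = 0.752).

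The sequences before the starts of the fibrinogen genes, Saa3 and Mt2 are shown because these genes rose together and carry letters of motifs bound by acute phase and metal-responsive factors. Each run is the 150 bases before the start, from RefSeq on GRCm38.p6, with capitals marking motif matches. They are the C/EBP letters TTGCNNAA in Fga (135 to 128 bases before the start), Fgb (80 to 73) and Saa3 (99 to 92), the metal response element letters TGCGCNC in Fgg (24 to 18), and in Mt2 a metal response element (128 to 122), the AP-1 letters TGANTCA (79 to 73) inside the antioxidant response element letters TGACNNNGC (79 to 71), and C/EBP letters (12 to 5), on either strand.
Fga, chr3:83026003-83026152, plus strand: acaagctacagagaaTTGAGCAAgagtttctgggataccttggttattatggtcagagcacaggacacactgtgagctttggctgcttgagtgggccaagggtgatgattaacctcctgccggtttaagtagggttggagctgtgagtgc
Fgb, chr3:83049864-83050013, minus strand: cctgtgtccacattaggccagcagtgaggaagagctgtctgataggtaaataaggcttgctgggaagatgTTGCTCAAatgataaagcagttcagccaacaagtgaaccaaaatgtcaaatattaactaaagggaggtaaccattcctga
Fgg, chr3:83007574-83007723, plus strand: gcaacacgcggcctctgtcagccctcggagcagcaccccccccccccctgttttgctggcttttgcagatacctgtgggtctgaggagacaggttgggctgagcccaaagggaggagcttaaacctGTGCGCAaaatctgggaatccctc
Saa3, chr7:46715677-46715826, minus strand: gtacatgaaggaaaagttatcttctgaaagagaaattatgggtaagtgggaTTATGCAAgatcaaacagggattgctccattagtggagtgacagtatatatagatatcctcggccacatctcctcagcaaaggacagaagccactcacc
Mt2, chr8:94172468-94172617, plus strand: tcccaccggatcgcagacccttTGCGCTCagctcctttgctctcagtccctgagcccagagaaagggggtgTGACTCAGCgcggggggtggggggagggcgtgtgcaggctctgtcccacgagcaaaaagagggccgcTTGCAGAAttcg
The starts that RefSeq gives for Fgg and Fgb lie before those of the deposited table.

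The same letters were counted in the windows of all genes. Windows of 300 bases, 250 before to 50 after the start, were found for 10715 of the 14091 genes (76.0%). Among the 1388 windows of genes called higher, 1170 of genes called lower and 10715 of all genes, C/EBP letters stood in 7.20%, 7.26% and 8.52%, metal response element letters in 26.8%, 25.6% and 26.3%, and the STAT letters TTCNNNGAA in 7.64%, 5.64% and 7.10%. The shares were 6.27%, 4.19% and 5.23% for AP-1, 17.2%, 13.1% and 14.9% for the antioxidant response element, 3.60%, 1.97% and 3.11% for the CRE letters TGACGTCA, 11.3%, 8.63% and 10.1% for the E-box letters CACGTG, and 3.96%, 2.31% and 3.70% for the NF-kB motif, all searched on both strands. Among genes called at an adjusted p under 0.01 (159 windows higher and 106 lower) the C/EBP share was 13.2% and 11.3%, above that of all genes instead of below it, so no order of these shares is read. Matches are descriptions of these windows and say nothing of binding.

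Genes of the IL-6 family signaling list rose far more often than they fell. In this list 15 of 24 measured members were higher and 2 lower (7 and 1 with the library number run as a covariate), with a median log2 fold change of 0.94 (1.11 on HFD and 0.84 on ND). Socs3, the feedback inhibitor of gp130 signaling, had 257, 102 and 40.8 CPM in HFD + hIRI kidneys against 18.7, 9.13 and 17.1 CPM in HFD + sham kidneys, and 8.4, 31 and 44.6 CPM in ND + hIRI kidneys against 5.69, 6.63 and 4.99 CPM in ND + sham kidneys. All 3 HFD + hIRI kidneys and 2 of the ND + hIRI kidneys lay above every sham kidney, with a log2 fold change of 2.71 (SE 0.48, adjusted p = 0.00865). Stat3, the transcription factor of the pathway, had 652, 537 and 398 CPM in HFD + hIRI kidneys against 150.1, 136 and 147 CPM in HFD + sham kidneys, and 141, 341 and 386 CPM in ND + hIRI kidneys against 92.9, 100.3 and 92.4 CPM in ND + sham kidneys, with the same libraries above the sham range and a log2 fold change of 1.74 (SE 0.22, adjusted p = 0.00433). The list also holds genes that are not cytokines or receptors of the IL-6 family. Of these, rises were seen for Tnfrsf12a, the receptor of the cytokine TWEAK, at a log2 fold change of 2.78, Bcl3, an atypical IkB protein, at 2.23, Junb, an AP-1 subunit, at 1.93, and Il4ra, the interleukin-4 receptor chain, at 1.20. Lif, a ligand of the family, rose by a log2 fold change of 3.33 (adjusted p = 0.0132) and Osmr, a receptor subunit, by 1.15 (adjusted p = 0.0138), both named after their values were seen. The 2 members that fell were Tyk2, a Janus kinase, at a log2 fold change of -0.57 (adjusted p = 0.0114), and Il11ra1, the interleukin-11 receptor chain, at -0.26 (adjusted p = 0.0195).

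Of the C/EBP, STAT and IRF factors 8 of 21 rose and 0 fell. Cebpb, a factor of the acute phase response, averaged 133 ± 59.7 CPM in HFD + hIRI kidneys and 48 ± 8.43 CPM in HFD + sham kidneys, and 58.4 ± 11.4 CPM in ND + hIRI and 20.4 ± 0.736 CPM in ND + sham kidneys (SD, n = 3 each), a log2 fold change of 1.49 (SE 0.19, adjusted p = 0.00433). Its response was close in size in both diets, 1.46 on HFD and 1.52 on ND, as was that of Cebpd, 2.06 on HFD and 2.16 on ND (adjusted p over both diets = 0.0114). Of the NF-kB subunits and feedback genes 13 of 29 rose and 0 fell, with a median log2 fold change of 0.68. Nfkbiz, a nuclear IkB protein, rose by a log2 fold change of 1.82, Tifa, an adaptor upstream of NF-kB, by 1.11, and Icam1, the endothelial and epithelial adhesion molecule, by 1.14 (SE 0.16, adjusted p = 0.00487) with no overlap.

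Chemokine and cytokine genes gave a mixed picture, with 7 of 27 higher and 2 lower, and 4 higher and 2 lower without HFD + hIRI replicate 1. Cxcl1, a neutrophil chemoattractant, had 189.8, 86.6 and 22.7 CPM in HFD + hIRI kidneys against 2, 1.07 and 4.69 CPM in HFD + sham kidneys, and 0.674, 28.3 and 42.9 CPM in ND + hIRI kidneys against 1.27, 1.23 and 1.4 CPM in ND + sham kidneys. Its log2 fold change was 4.73 (SE 0.84, adjusted p = 0.00851), and ND + hIRI replicate 1 lay below every sham kidney. Cxcl2, a related chemoattractant, had 43.8, 1.19 and 0.184 CPM in HFD + hIRI kidneys against 0.459, 0.0857 and 0.213 CPM in HFD + sham kidneys, and 0.119, 1.68 and 2.21 CPM in ND + hIRI kidneys against 0.0685, 0.211 and 0.171 CPM in ND + sham kidneys. HFD + hIRI replicate 1 stood far above the other 11, and the log2 fold change of 4.45 (adjusted p = 0.0299) was 2.24 without it, with the call lost without ND + sham replicates 1, 2 or 3, ND + hIRI replicates 2 or 3, HFD + sham replicates 1, 2 or 3 or HFD + hIRI replicate 1. Il34, a ligand of the macrophage receptor CSF1R, rose by a log2 fold change of 1.87 and Cxcl14 by 1.01. The 2 that fell were Il15, a cytokine that sustains natural killer cells and memory T cells, at a log2 fold change of -1.01 (SE 0.17, adjusted p = 0.00698), and Cxcl12, the ligand of CXCR4, at -0.93 (SE 0.18, adjusted p = 0.0101), and neither overlapped between hIRI and sham kidneys.

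AP-1 and immediate early genes held the largest share of members called. Of this list 40 of 49 measured members rose and 0 fell, with a median log2 fold change of 1.17 (1.60 on HFD and 1.02 on ND), and 15 rose with the library number run as a covariate. Jun had 397, 179 and 117 CPM in HFD + hIRI kidneys against 43.2, 62.7 and 56.4 CPM in HFD + sham kidneys, and 50.9, 119 and 165 CPM in ND + hIRI kidneys against 39.9, 32 and 32.1 CPM in ND + sham kidneys. For Jun the log2 fold change was 1.89 (SE 0.33, adjusted p = 0.00775), and ND + hIRI replicate 1 alone among hIRI kidneys lay in the sham range. Dusp8, a phosphatase that switches off JNK and p38 kinases, had 137, 43 and 17.5 CPM in HFD + hIRI kidneys against 5.02, 3.99 and 4.34 CPM in HFD + sham kidneys, and 3.41, 16.9 and 28.4 CPM in ND + hIRI kidneys against 3.12, 2.77 and 2.56 CPM in ND + sham kidneys. All hIRI kidneys but ND + hIRI replicate 1 lay above the sham range for Dusp8, and the log2 fold change was 3.20 (SE 0.56, adjusted p = 0.00805). Maff, a small Maf factor, rose by a log2 fold change of 2.23. Outside this list, Arg2, mitochondrial arginase, of the amino acid uptake and polyamine list, rose by 1.83. Fosl1, a subunit that joins AP-1 late, reached 104, 2.83 and 0.646 CPM in HFD + hIRI kidneys and 0.0396, 1.17 and 2.64 CPM in ND + hIRI kidneys, against 0.394, 0 and 0.0852 CPM in HFD + sham kidneys and 0.171, 0 and 0.102 CPM in ND + sham kidneys, and HFD + hIRI replicate 1 stood far above the other 11. Its log2 fold change was 5.66 (SE 1.48, adjusted p = 0.0239), and the call was lost without ND + sham replicates 1 or 3, ND + hIRI replicate 3 or HFD + sham replicates 2 or 3.

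EGF receptor ligands and their feedback genes rose in 15 of 29 and fell in 1. Errfi1, an inhibitor of the EGF receptor, rose by a log2 fold change of 0.85 (SE 0.15, adjusted p = 0.00894), Spry4 and Dusp4, feedback inhibitors of ERK signaling, by 1.08 and 1.13, and Rhbdf2 and Rhbdf1, partners of the sheddase ADAM17, by 1.60 and 0.81. Areg, the ligand amphiregulin, had 161, 1.72 and 0.599 CPM in HFD + hIRI kidneys and 0.159, 0.0936 and 5.71 CPM in ND + hIRI kidneys, against 0.131, 0.0429 and 0.0426 CPM in HFD + sham kidneys and 0.137, 0 and 0.307 CPM in ND + sham kidneys. HFD + hIRI replicate 1 stood far above the other 11 libraries, and the call at a log2 fold change of 6.51 (SE 1.77, adjusted p = 0.0267) was lost without ND + sham replicates 1, 2 or 3, ND + hIRI replicate 3 or HFD + sham replicates 1, 2 or 3. Fgf9, a growth factor of the same list, was lower at a log2 fold change of -0.63 (adjusted p = 0.035), a call lost without ND + sham replicates 1, 2 or 3, ND + hIRI replicates 2 or 3, HFD + sham replicates 1, 2 or 3 or HFD + hIRI replicate 2.

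Tubular injury and repair genes rose far more often than they fell. Of this list 18 of 32 measured members rose and 1 fell (11 and 1 with the library number run as a covariate), with a median log2 fold change of 0.99 (1.37 on HFD and 0.61 on ND). Spp1, osteopontin, had 16194, 8320.3 and 4157 CPM in HFD + hIRI kidneys against 864, 843 and 1111 CPM in HFD + sham kidneys, and 806, 2689 and 3992 CPM in ND + hIRI kidneys against 927, 912 and 991 CPM in ND + sham kidneys. ND + hIRI replicates 2 and 3 lay above all sham kidneys and ND + hIRI replicate 1 below them, and the log2 fold change was 2.38 (SE 0.39, adjusted p = 0.00696). Sox9, a transcription factor of regenerating tubule cells, had 152, 55.9 and 32.1 CPM in HFD + hIRI kidneys against 1.38, 1.16 and 2.17 CPM in HFD + sham kidneys, and 2.06, 2.9 and 14.9 CPM in ND + hIRI kidneys against 0.617, 0.948 and 1.13 CPM in ND + sham kidneys, with ND + hIRI replicate 1 inside the sham range and a log2 fold change of 4.27 (SE 0.59, adjusted p = 0.00462). Clu, the chaperone clusterin, rose by a log2 fold change of 1.71 (SE 0.27, adjusted p = 0.00609), Timp1, a metalloproteinase inhibitor, by 3.16 (SE 0.50, adjusted p = 0.00664), and Gdf15, a stress-induced cytokine, by 3.30 (SE 0.63, adjusted p = 0.0101). Krt20, a keratin of injured tubules, reached 1421 CPM in HFD + hIRI replicate 1 and at most 10.9 CPM elsewhere. Its call (log2 fold change 4.92, adjusted p = 0.0312) was lost without ND + sham replicates 1, 2 or 3, ND + hIRI replicate 3, HFD + sham replicates 1, 2 or 3 or HFD + hIRI replicate 1. Havcr1, the KIM-1 gene of injured proximal tubules and named after its values were seen, had 92.5, 18.6 and 6.41 CPM in HFD + hIRI kidneys against 3.12, 2.4 and 2.13 CPM in HFD + sham kidneys, and 1.31, 4.26 and 6.43 CPM in ND + hIRI kidneys against 3.19, 3.62 and 3.45 CPM in ND + sham kidneys. All hIRI kidneys but ND + hIRI replicate 1 lay above the sham range, and that kidney lay below it. Its log2 fold change was 2.07 (SE 0.58, adjusted p = 0.0301) over both diets, 3.93 on HFD and 0.21 on ND, and the call was lost without ND + sham replicates 1, 2 or 3, ND + hIRI replicates 2 or 3 or HFD + sham replicates 1, 2 or 3.

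Genes of cell death and growth arrest rose more often than they fell. Of the apoptosis and cell death regulators 15 of 45 rose and 0 fell, and 2 fell under upper quartile scaling and 5 under library totals. Tnfrsf1a, a receptor with a death domain, had 271, 165 and 134 CPM in HFD + hIRI kidneys against 67.9, 62.9 and 58.1 CPM in HFD + sham kidneys, and 61.2, 112 and 115 CPM in ND + hIRI kidneys against 49.7, 52.8 and 46.1 CPM in ND + sham kidneys. For Tnfrsf1a the log2 fold change was 1.27 (SE 0.19, adjusted p = 0.00601), with every hIRI kidney but ND + hIRI replicate 1 above the sham range. Casp8, the caspase that death receptors activate, rose by a log2 fold change of 0.81 (SE 0.15, adjusted p = 0.0101) with no overlap, Bcl2l1, the anti-apoptotic BCL-XL gene, by 1.15, Ltbr, the lymphotoxin beta receptor, by 0.59, and Fas by 0.69. Of p53 targets and growth arrest genes 10 of 33 rose and 2 fell. Cdkn1a, the cyclin-dependent kinase inhibitor p21, had 630.2, 126 and 113 CPM in HFD + hIRI kidneys against 37.9, 21.7 and 34.3 CPM in HFD + sham kidneys, and 22.7, 73.7 and 185 CPM in ND + hIRI kidneys against 12, 12.9 and 12.4 CPM in ND + sham kidneys. For Cdkn1a the log2 fold change was 3.06 (SE 0.56, adjusted p = 0.00894), again with every hIRI kidney but ND + hIRI replicate 1 above the sham range. Gadd45a rose by a log2 fold change of 1.86 and Aen, an apoptosis-enhancing nuclease, by 0.65 with no overlap. Of cell cycle genes 1 of 40 was higher and 4 were lower, beside 12.9% and 10.9% of all genes. Among those lower was Cenpe, a kinetochore motor, at a log2 fold change of -1.30 (adjusted p = 0.00912).

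Metal-binding and heme-handling genes rose more often than they fell. Of the metal and iron list 9 of 24 rose and 1 fell. Mt2, a metallothionein that binds zinc and copper, had 2075, 693 and 433 CPM in HFD + hIRI kidneys against 123, 56.6 and 73.6 CPM in HFD + sham kidneys, and 51.1, 482 and 446 CPM in ND + hIRI kidneys against 40.2, 54.4 and 42.4 CPM in ND + sham kidneys. ND + hIRI replicate 1 lay within the sham range and the other 5 hIRI kidneys above it, with a log2 fold change of 3.25 (SE 0.55, adjusted p = 0.00738), and Mt1 rose by 2.73 (SE 0.44, adjusted p = 0.00696). Slc39a14, a zinc and iron importer, rose by a log2 fold change of 1.48. Hmox1, the heme oxygenase that breaks down heme, had 398, 259.7 and 116 CPM in HFD + hIRI kidneys against 29.5, 24.6 and 28.6 CPM in HFD + sham kidneys, and 42.2, 808 and 197 CPM in ND + hIRI kidneys against 40.2, 40.2 and 28.7 CPM in ND + sham kidneys. All 6 hIRI kidneys lay above all 6 sham kidneys, the highest being ND + hIRI replicate 2, and the log2 fold change was 3.24 (SE 0.58, adjusted p = 0.00894) with a close response in each diet (3.23 on HFD and 3.26 on ND).

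Of NRF2 targets and glutathione genes 13 of 37 rose and 1 fell. Txnrd1, thioredoxin reductase, rose by a log2 fold change of 1.28 (SE 0.24, adjusted p = 0.00917) with no overlap, Nqo1 by 1.15, Gsr, glutathione reductase, by 0.57, and Nfe2l2, which encodes NRF2 itself, by 0.75. Of the unfolded protein and integrated stress response list 22 of 48 rose and 5 fell. Those that rose included Psat1, an enzyme of serine synthesis, at a log2 fold change of 1.83 (SE 0.25, adjusted p = 0.0046), and Mthfd2, of mitochondrial folate metabolism, at 1.72 (SE 0.35, adjusted p = 0.0114), both without overlap, and Xbp1, a factor of the unfolded protein response, at 1.70. Those that fell included chaperones of the endoplasmic reticulum lumen, Hsp90b1 at a log2 fold change of -0.42 (SE 0.08, adjusted p = 0.0108) with no overlap, and Pdia4 at -0.42 and Calr at -0.27. Pdia4 lost its call without ND + hIRI replicate 3 or HFD + sham replicate 2. Calr lost its call without ND + sham replicates 1 or 3, ND + hIRI replicates 1 or 3, HFD + sham replicates 1, 2 or 3 or HFD + hIRI replicates 1 or 2. Of heat shock genes 3 of 30 were higher and 5 lower, beside 12.9% and 10.9% of all genes, and 3 and 10 under library totals. Hsph1, a large chaperone, fell, with a log2 fold change of -0.52 (SE 0.08, adjusted p = 0.00601) with no overlap, and Cryab, a small heat shock protein, at -0.57 with none.

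Metabolic genes moved in several directions. Pdk4, the kinase that shuts down pyruvate dehydrogenase in fasting, had 888, 698 and 489 CPM in HFD + hIRI kidneys against 138, 138 and 119 CPM in HFD + sham kidneys, and 184, 392 and 266 CPM in ND + hIRI kidneys against 81.9, 65.9 and 25.9 CPM in ND + sham kidneys, with all hIRI kidneys above all sham kidneys and a log2 fold change of 2.34 (SE 0.28, adjusted p = 0.00433). H6pd, the hexose-6-phosphate dehydrogenase of the endoplasmic reticulum, had 1022, 1172 and 1020.1 CPM in HFD + hIRI kidneys against 508, 494 and 443 CPM in HFD + sham kidneys, and 526, 876 and 848 CPM in ND + hIRI kidneys against 349.7, 430.0 and 315 CPM in ND + sham kidneys. For H6pd the log2 fold change was 1.10 (SE 0.13, adjusted p = 0.00433) with no overlap. Cpt1a, which carries fatty acids into mitochondria, rose by a log2 fold change of 0.52 with no overlap, among 9 of 50 members of the fatty acid oxidation list higher and 2 lower (18 and 0 with the library number run as a covariate). Acsm5, a medium-chain acyl-CoA synthetase, fell, with a log2 fold change of -0.75, a call lost without ND + hIRI replicate 3. Plin2, which coats lipid droplets, had 3660.1, 1185 and 589.9 CPM in HFD + hIRI kidneys against 127, 112 and 103 CPM in HFD + sham kidneys, and 164, 227 and 376 CPM in ND + hIRI kidneys against 118, 95.4 and 103 CPM in ND + sham kidneys. For Plin2 the log2 fold change was 2.63 (SE 0.39, adjusted p = 0.00598) with no overlap. Slc25a22, a mitochondrial glutamate carrier, rose by a log2 fold change of 1.78 (SE 0.23, adjusted p = 0.00433) with no overlap and 1.49 on HFD and 2.08 on ND. Of glycolysis and hypoxia targets 12 of 40 rose and 1 fell. They included a rise of Ldha, lactate dehydrogenase, at a log2 fold change of 0.43 and a fall of Pfkm, a phosphofructokinase, at -0.76. The gluconeogenesis and ammoniagenesis list held 7 of 29 higher and 2 lower. Its member Slc16a1, a lactate transporter, rose by a log2 fold change of 1.42.

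Genes of ribosome biogenesis rose by small amounts, 26 of 46 higher and 1 lower with a median log2 fold change of 0.33, and 19 rose under upper quartile scaling and 16 under library totals. Rrp12 rose by a log2 fold change of 0.82 (SE 0.13, adjusted p = 0.00695), and Gnl3, the nucleolar protein nucleostemin, by 0.67. Of glucocorticoid-induced genes 12 of 26 rose and 0 fell, and this was among the lists whose median was larger on ND (0.92) than on HFD (0.49). Ddit4, an inhibitor of mTORC1, was an example with 1.14 on HFD and 2.54 on ND and a log2 fold change of 1.84 (SE 0.40, adjusted p = 0.0138) over both diets. For this list the sham kidneys lay lower on ND. Relative to all sham kidneys, its mean log2 level was 0.462, 0.25 and 0.492 in HFD + sham kidneys. In ND + sham kidneys the level was -0.152, -0.164 and -0.889. It was 1.22, 1.09 and 1.06 in HFD + hIRI kidneys and 0.156, 1.18 and 1.07 in ND + hIRI kidneys. Clock genes split, with 5 of 22 higher and 3 lower, beside 12.9% and 10.9% of all genes. Bhlhe40, a clock repressor, rose by a log2 fold change of 0.95, and Dbp, an output factor of the clock, fell at -1.20 (adjusted p = 0.0346), a call lost without ND + sham replicates 1, 2 or 3, ND + hIRI replicates 2 or 3, HFD + sham replicates 1 or 2 or HFD + hIRI replicate 2.

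Several genes with complete separation of hIRI and sham kidneys belonged to none of the lists. Tsc22d1, a leucine zipper regulator, had 4901, 3487 and 2297 CPM in HFD + hIRI kidneys and 702, 1505 and 2115 CPM in ND + hIRI kidneys, against 650.5, 464 and 644 CPM in HFD + sham kidneys and 512, 308 and 315 CPM in ND + sham kidneys. For Tsc22d1 the log2 fold change was 2.27 (SE 0.28, adjusted p = 0.00433). Lpo, lactoperoxidase, had 9.61, 6.12 and 7.33 CPM in HFD + hIRI kidneys and 1.43, 4.16 and 4.42 CPM in ND + hIRI kidneys, against 0.558, 0.986 and 0.895 CPM in HFD + sham kidneys and 0.822, 0.456 and 0.444 CPM in ND + sham kidneys. For Lpo the log2 fold change was 2.88 (SE 0.31, adjusted p = 0.00433), and Lpo was among the 4 genes called in the higher run alone. Ankrd2, an ankyrin repeat protein first described in stretched muscle, had 3.41, 2.33 and 1.2 CPM in HFD + hIRI kidneys and 0.238, 0.983 and 0.72 CPM in ND + hIRI kidneys, against 0.0328, 0.129 and 0.17 CPM in HFD + sham kidneys and 0, 0.0351 and 0 CPM in ND + sham kidneys. These are low levels, above the sham range in every hIRI kidney, with a log2 fold change of 4.84 (SE 0.60, adjusted p = 0.00433). C1qtnf1, a secreted C1q-related protein, rose by a log2 fold change of 0.70 without overlap.

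Falls were led by genes of low to moderate level. Clec2h, a lectin-like ligand of natural killer receptors, had 1.65, 2.98 and 5.16 CPM in HFD + hIRI kidneys and 9.91, 14.8 and 8.02 CPM in ND + hIRI kidneys, against 13, 28.4 and 26.2 CPM in HFD + sham kidneys and 37.4, 66.8 and 87.9 CPM in ND + sham kidneys. Only HFD + sham replicate 1 lay as low as the hIRI range, and the log2 fold change was -2.66 (SE 0.32, adjusted p = 0.00433). Hsd3b4, a 3-beta-hydroxysteroid dehydrogenase of mouse kidney, had 2.84, 2.6 and 5.35 CPM in HFD + hIRI kidneys and 18.1, 9.08 and 6 CPM in ND + hIRI kidneys, against 31.3, 38.7 and 30.5 CPM in HFD + sham kidneys and 53.1, 25.8 and 37.3 CPM in ND + sham kidneys, with no overlap and a log2 fold change of -2.51 (SE 0.30, adjusted p = 0.00433). Hsd3b4 belongs to a family of close paralogs, so the split of reads among them is uncertain. Tbxas1, thromboxane A synthase, had 0.981, 2.18 and 1.71 CPM in HFD + hIRI kidneys and 4.64, 3.32 and 3.36 CPM in ND + hIRI kidneys, against 5.41, 6.04 and 7.16 CPM in HFD + sham kidneys and 10.2, 7.83 and 15.3 CPM in ND + sham kidneys, with no overlap and a log2 fold change of -1.74 (SE 0.22, adjusted p = 0.00433).

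Further genes without overlap were lower in all 6 hIRI kidneys. Sfrp1, a secreted Wnt inhibitor, had 46.1, 41.6 and 53.5 CPM in HFD + hIRI kidneys and 103, 61.1 and 50.9 CPM in ND + hIRI kidneys, against 144, 167 and 133 CPM in HFD + sham kidneys and 140.4, 168 and 117 CPM in ND + sham kidneys. For Sfrp1 the log2 fold change was -1.32 (SE 0.17, adjusted p = 0.00433). Psca, a GPI-anchored surface protein, had 8.83, 5.78 and 6.64 CPM in HFD + hIRI kidneys and 5.83, 5.29 and 2.5 CPM in ND + hIRI kidneys, against 15.9, 16.4 and 15 CPM in HFD + sham kidneys and 18.4, 14.4 and 13.2 CPM in ND + sham kidneys. For Psca the log2 fold change was -1.45 (SE 0.19, adjusted p = 0.00442). The response of Psca was -1.16 on HFD and -1.75 on ND on the log2 scale. Slc16a7, a monocarboxylate transporter, had 38.6, 30.5 and 40.9 CPM in HFD + hIRI kidneys and 62.7, 60.2 and 54 CPM in ND + hIRI kidneys, against 70.7, 70.1 and 83.8 CPM in HFD + sham kidneys and 76.9, 92.4 and 93 CPM in ND + sham kidneys. For Slc16a7 the log2 fold change was -0.80 (SE 0.09, adjusted p = 0.00433). Hhip, which binds hedgehog ligands, Tnfrsf19, a receptor also known as TROY, and Glt8d2, a glycosyltransferase-like protein, had log2 fold changes of -2.46, -2.39 and -2.47. Their levels were low, Hhip for instance at 0.182 ± 0.0738 CPM in hIRI and 1.04 ± 0.296 CPM in sham kidneys (SD, n = 6 each). Prss35, a protease-like protein, had at most 0.155 CPM in hIRI kidneys and at least 0.596 CPM in sham kidneys, a log2 fold change of -4.53 (SE 0.53, adjusted p = 0.00433) that rests on few reads.

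**Figure D4:**
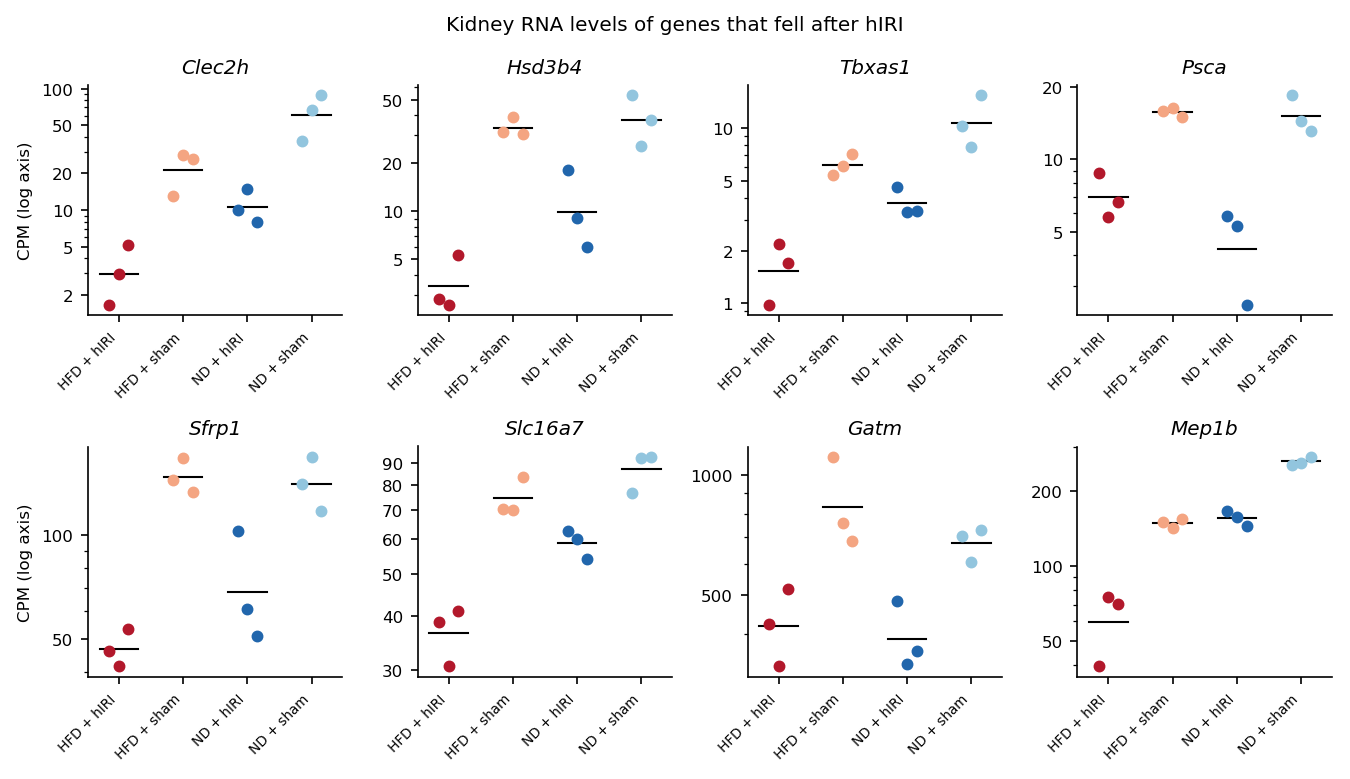
CPM (log axis) of 8 genes that fell after hIRI, by group, with 1 point per library and a line at the geometric mean of the 3 libraries. For Hsd3b4, Tbxas1, Psca, Sfrp1, Slc16a7 and Gatm all 6 hIRI points lie below all 6 sham points, and for Mep1b the ND + hIRI points lie level with those of HFD + sham.

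Transport genes of the nephron fell by modest amounts and only in part. Of the proximal tubule transporters and brush border genes 2 of 61 were higher and 14 lower, with a median log2 fold change of -0.20 (-0.22 on HFD and -0.16 on ND). Mep1b, the brush border protease meprin beta, had 39.6, 75.2 and 70.5 CPM in HFD + hIRI kidneys against 149.5, 142 and 154 CPM in HFD + sham kidneys, and 165, 157 and 145 CPM in ND + hIRI kidneys against 255, 259.8 and 274 CPM in ND + sham kidneys. For Mep1b the log2 fold change was -1.01 (SE 0.13, adjusted p = 0.00433), and within each diet the hIRI kidneys lay below the sham kidneys without overlap. Aqp1, the water channel aquaporin 1, averaged 569.7 ± 60.7 CPM in HFD + hIRI kidneys and 964 ± 39.3 CPM in HFD + sham kidneys, and 911 ± 114 CPM in ND + hIRI and 1153 ± 38.9 CPM in ND + sham kidneys (SD, n = 3 each), a log2 fold change of -0.55 (SE 0.08, adjusted p = 0.00498). Mme, the peptidase neprilysin, fell, with a log2 fold change of -0.48 with no overlap, Slc22a22, a prostaglandin transporter, at -0.91 with none, and Slc7a7, a basolateral carrier of cationic amino acids, at -0.52. Slc13a1, the sulfate transporter, went the other way at a log2 fold change of 0.88 (SE 0.15, adjusted p = 0.00733). Gatm, the enzyme that starts creatine synthesis in proximal tubules, had 425, 333 and 519 CPM in HFD + hIRI kidneys against 1109, 759.6 and 685 CPM in HFD + sham kidneys, and 484, 336 and 363 CPM in ND + hIRI kidneys against 706, 607 and 727 CPM in ND + sham kidneys. For Gatm the log2 fold change was -0.89 (SE 0.15, adjusted p = 0.00731) with no overlap. In whole-kidney RNA, fewer cells of a type and less RNA per cell cannot be told apart.

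Segment markers were called lower more often than higher, and differences between segments were not tested. Of the 10 proximal tubule markers 3 fell and 0 rose, and 0 were called with the library number run as a covariate. Lrp2, the endocytic receptor megalin, was among the 3 that fell, at a log2 fold change of -0.42 (adjusted p = 0.0439). Its call was lost without ND + sham replicates 1, 2 or 3, ND + hIRI replicates 2 or 3, HFD + sham replicates 1, 2 or 3 or HFD + hIRI replicate 2. Slc34a1, the sodium-phosphate cotransporter, stood at a log2 fold change of -0.26 (adjusted p = 0.0851) and Kap at -0.20 (adjusted p = 0.396), neither called. The 7 thick ascending limb markers held 1 that fell and 0 that rose, and 4 and 1 without ND + hIRI replicate 1. Umod and Slc12a1, the sodium-potassium-chloride cotransporter of the thick ascending limb, were uncalled at a log2 fold change of 0.11 (adjusted p = 0.466) and -0.21 (adjusted p = 0.174). Of 7 markers of the distal convoluted and connecting tubule 3 fell and 1 rose, 2 and 0 with the library number run as a covariate. Of 10 collecting duct markers 4 fell and 0 rose, 2 and 0 with the covariate. These stand beside 10.9% lower and 12.9% higher of all genes. The distal markers that fell were Slc8a1, Emx1, a homeobox factor, and Pvalb, a calcium-binding protein at a log2 fold change of -0.73 with no overlap. Those of the collecting duct were Hsd11b2, Slc4a1, Avpr2, the vasopressin receptor, at a log2 fold change of -1.09, and Aqp6, an intercalated cell aquaporin, at -0.50. Emx1 lost its call without ND + sham replicate 3, ND + hIRI replicates 2 or 3, HFD + sham replicates 2 or 3 or HFD + hIRI replicate 2. Avpr2 lost its call without ND + sham replicates 1, 2 or 3, ND + hIRI replicates 2 or 3, HFD + sham replicates 1, 2 or 3 or HFD + hIRI replicate 2. Aqp6 lost its call without ND + sham replicates 1, 2 or 3, ND + hIRI replicates 2 or 3, HFD + sham replicates 1, 2 or 3 or HFD + hIRI replicates 1 or 2. Slc12a3, the thiazide-sensitive cotransporter, was higher at a log2 fold change of 0.22 (adjusted p = 0.0478), a call lost without ND + sham replicates 1 or 3, ND + hIRI replicates 2 or 3, HFD + sham replicates 1, 2 or 3 or HFD + hIRI replicates 1 or 2. Within the loop and distal nephron transport list 18 of 52 members fell and 4 rose, 8 and 0 with the library number run as a covariate, with a median log2 fold change of -0.22 (-0.38 on HFD and -0.12 on ND). Slc4a1, the anion exchanger of acid-secreting intercalated cells and of red blood cells, had 4.18, 1.49 and 6.55 CPM in HFD + hIRI kidneys against 47.5, 49.7 and 40.0 CPM in HFD + sham kidneys, and 45.5, 7.11 and 4.56 CPM in ND + hIRI kidneys against 33.9, 35.4 and 40.5 CPM in ND + sham kidneys. The 3 HFD + hIRI kidneys and ND + hIRI replicates 2 and 3 lay far below the sham range and ND + hIRI replicate 1 within it, a log2 fold change of -2.22 (SE 0.52, adjusted p = 0.0174). Slc4a1 was also the 1 called of 4 red cell precursor markers measured, whose sum, Slc4a1 included, was 15.6 to 57.4 CPM in hIRI kidneys and 46.8 to 84 CPM in sham kidneys. Alas2, the heme synthesis enzyme of red cells, stood at a log2 fold change of -0.32 (adjusted p = 0.109) and Klf1, a red cell transcription factor, at -0.06 (adjusted p = 0.883), and the part of red cells in the Slc4a1 result was not tested. Bsnd, the barttin subunit of chloride channels, fell, with a log2 fold change of -1.34 (SE 0.29, adjusted p = 0.0139), Hsd11b2, which protects the mineralocorticoid receptor from cortisol-like steroids, at -1.07 (SE 0.26, adjusted p = 0.0187), and Slc8a1, the sodium-calcium exchanger of distal tubules, at -0.89 (SE 0.16, adjusted p = 0.00894) with no overlap. Trpv5, the apical calcium channel of the same segment, rose by a log2 fold change of 1.07 (SE 0.25, adjusted p = 0.0169).

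Factors that hold nephron identity fell more often than they rose, 11 lower against 5 higher of 46. Pou3f3, a factor of the loop of Henle and distal tubule, fell, with a log2 fold change of -0.55 (SE 0.12, adjusted p = 0.0138), and Thra, a thyroid hormone receptor, at -0.42 (SE 0.10, adjusted p = 0.018). Cytochrome P450 and conjugation enzymes held 6 higher and 6 lower of 52, shares near those of all genes. Of these Akr1c21, a hydroxysteroid dehydrogenase of mouse kidney, fell, with a log2 fold change of -0.40 with no overlap. Of cholesterol and fatty acid synthesis genes 3 rose and 6 fell of 42, beside 12.9% higher and 10.9% lower of all genes. Acly, the ATP citrate lyase, rose by a log2 fold change of 0.88 (SE 0.12, adjusted p = 0.00442).

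Some responses were almost equal in size in the 2 diets, which held for genes chosen as the 6 per direction with the smallest difference between diets. Cenpt, a kinetochore protein, had log2 fold changes of 1.22 on HFD and 1.22 on ND, Pde10a, a phosphodiesterase, of 1.45 on HFD and 1.43 on ND, Hacd4, an enzyme of very long chain fatty acids, of -1.64 on HFD and -1.60 on ND, Atp10b, a lipid flippase, of -1.52 on HFD and -1.55 on ND, Apela, the apelin receptor ligand also called Elabela, of -1.24 on HFD and -1.23 on ND, and Clec7a, the beta-glucan receptor dectin-1, of -2.19 on HFD and -2.14 on ND. Apela had 8.88, 8.46 and 8.3 CPM in HFD + hIRI kidneys against 15.3, 23.6 and 21.6 CPM in HFD + sham kidneys, and 20.4, 13 and 8.5 CPM in ND + hIRI kidneys against 34.7, 29 and 34.9 CPM in ND + sham kidneys, lower in hIRI than in sham kidneys of the same diet without overlap. Equality was the basis of the choice and was not tested. The test of the difference between diets called 2 of 14091 genes (0.0142%), Fgb and Vdr (1429 at an unadjusted p under 0.05), while DESeq2 called 33 and limma voom 0. When 1 library was left out the count was 2 without HFD + hIRI replicate 1, 1 without HFD + hIRI replicate 3 and 0 in the other 10 fits.

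Endothelial activation markers rose while general endothelial markers were mixed. Of the 9 measured activation markers 5 rose and 0 fell, 3 and 0 with the library number run as a covariate. Their summed level was 143 to 755 CPM in hIRI kidneys and 109 to 159 CPM in sham kidneys. Sele, E-selectin, lay between 1.07 and 10.6 CPM in hIRI kidneys and between 0.480 and 1.47 CPM in sham kidneys, a log2 fold change of 2.46 (SE 0.47, adjusted p = 0.0103). Selp, P-selectin, rose by a log2 fold change of 3.30 (SE 0.81, adjusted p = 0.0198), a call lost without HFD + sham replicate 2. Lrg1 and Icam1 are also on this list. Of 12 endothelial markers 3 rose and 2 fell, among them Cdh5, VE-cadherin, at a log2 fold change of 0.97 (SE 0.22, adjusted p = 0.0165). With the library number run as a covariate 0 of the 12 were called.

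Among leukocyte markers few were called. Of 13 measured neutrophil markers 2 rose, Il1r2 and Trem1, a share near the 12.9% of all genes, and 0 with the library number run as a covariate. The summed level was 17.7 to 179.5 CPM in hIRI kidneys and 12.8 to 92.9 CPM in sham kidneys. S100a8, a calgranulin abundant in neutrophils, was uncalled at a log2 fold change of 1.19 (adjusted p = 0.188), and HFD + sham replicate 3 held 24.8 CPM, more than 5 of the hIRI kidneys. Trem1, an amplifying receptor of myeloid cells, rose by a log2 fold change of 2.51 (SE 0.59, adjusted p = 0.0176) with no overlap, and Il1r2, a decoy receptor, by 2.74 (adjusted p = 0.0217), a call lost without ND + sham replicates 1 or 3, ND + hIRI replicate 3 or HFD + sham replicate 2. Of 9 measured monocyte markers 3 rose and 0 fell, with a median log2 fold change of 0.86 and a sum of 124 to 620.5 CPM in hIRI kidneys and 137 to 201 CPM in sham kidneys. They were Plac8 at a log2 fold change of 1.64, Msr1, a scavenger receptor, at 1.54, and Thbs1, the matrix protein thrombospondin 1, at 0.86. With the library number run as a covariate 0 of the 3 were called. Plac8 lost its call without ND + sham replicates 1 or 2, ND + hIRI replicates 2 or 3 or HFD + sham replicates 1, 2 or 3. Msr1 lost its call without ND + sham replicates 1 or 2, ND + hIRI replicates 2 or 3, HFD + sham replicates 1, 2 or 3 or HFD + hIRI replicate 1. Thbs1 lost its call without ND + sham replicates 1, 2 or 3, ND + hIRI replicates 2 or 3, HFD + sham replicates 2 or 3 or HFD + hIRI replicate 1. Of 12 macrophage markers 1 rose and 3 fell, 1 and 4 with the library number run as a covariate. Among the 3 was Cx3cr1, the fractalkine receptor of resident macrophages, at a log2 fold change of -1.27 (SE 0.31, adjusted p = 0.0199), a call lost without HFD + sham replicates 2 or 3. Neutrophil markers did not follow the acute phase genes in every kidney. In HFD + sham replicate 3 the mean log2 level relative to all sham kidneys was 1.75 for neutrophil markers and 0.165 for acute phase genes. Lrg1 is on both the endothelial activation list and the acute phase list. The part of neutrophils, of monocytes and of activated endothelium in the acute phase and chemokine results was not tested.

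Adrenal markers were counted because the adrenal gland lies on the kidney. Of 11 adrenal markers 3 were in the table and 2 rose. Akr1b7, an aldo-keto reductase abundant in the adrenal cortex, had 64.9, 25.8 and 32.1 CPM in HFD + hIRI kidneys against 4.56, 3.04 and 3.24 CPM in HFD + sham kidneys, and 2.85, 13.5 and 15.6 CPM in ND + hIRI kidneys against 2.12, 2.04 and 2.02 CPM in ND + sham kidneys. For Akr1b7 the log2 fold change was 2.93 (SE 0.39, adjusted p = 0.00442), with every hIRI kidney but ND + hIRI replicate 1 above the sham range. Mc2r, the ACTH receptor, rose by a log2 fold change of 1.17 (adjusted p = 0.0195). Star, the third, was uncalled at a log2 fold change of 0.56 (adjusted p = 0.109), between 0.852 and 2.79 CPM in every library. The summed level of the 3 was 5.35 to 70.2 CPM in hIRI kidneys and 3.38 to 6.33 CPM in sham kidneys, and its part in the steroid enzyme results was not tested.

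Interferon-stimulated genes were seldom called. Of 45 members 2 rose, Oasl1 at a log2 fold change of 2.44 (adjusted p = 0.0419) and Irf9 at 0.80 (adjusted p = 0.0304), and 0 fell, although the median was 0.76. On ND all 45 were positive, with a median log2 fold change of 1.27 and 21 at an unadjusted p under 0.05, while on HFD the median was 0.24 with 32 of 45 positive. The mean log2 level of the list relative to the 6 sham kidneys was 2.21 in ND + hIRI replicate 2, against -0.352 and 0.151 in the other 2 ND + hIRI kidneys and 0.762, 0.0355 and -0.249 in the HFD + hIRI kidneys. ND + hIRI replicate 2 was thus highest and HFD + hIRI replicate 1 second, against -0.141 to 0.192 in the sham kidneys. The list held 20 calls without ND + hIRI replicate 1, 0 without HFD + hIRI replicate 1 and 10 without both. Oasl1 lost its call without ND + sham replicates 1, 2 or 3, ND + hIRI replicates 2 or 3, HFD + sham replicates 1, 2 or 3 or HFD + hIRI replicate 1. Irf9 lost its call without ND + sham replicates 1, 2 or 3, ND + hIRI replicate 3, HFD + sham replicates 1, 2 or 3 or HFD + hIRI replicates 1 or 2.

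**Figure D5:**
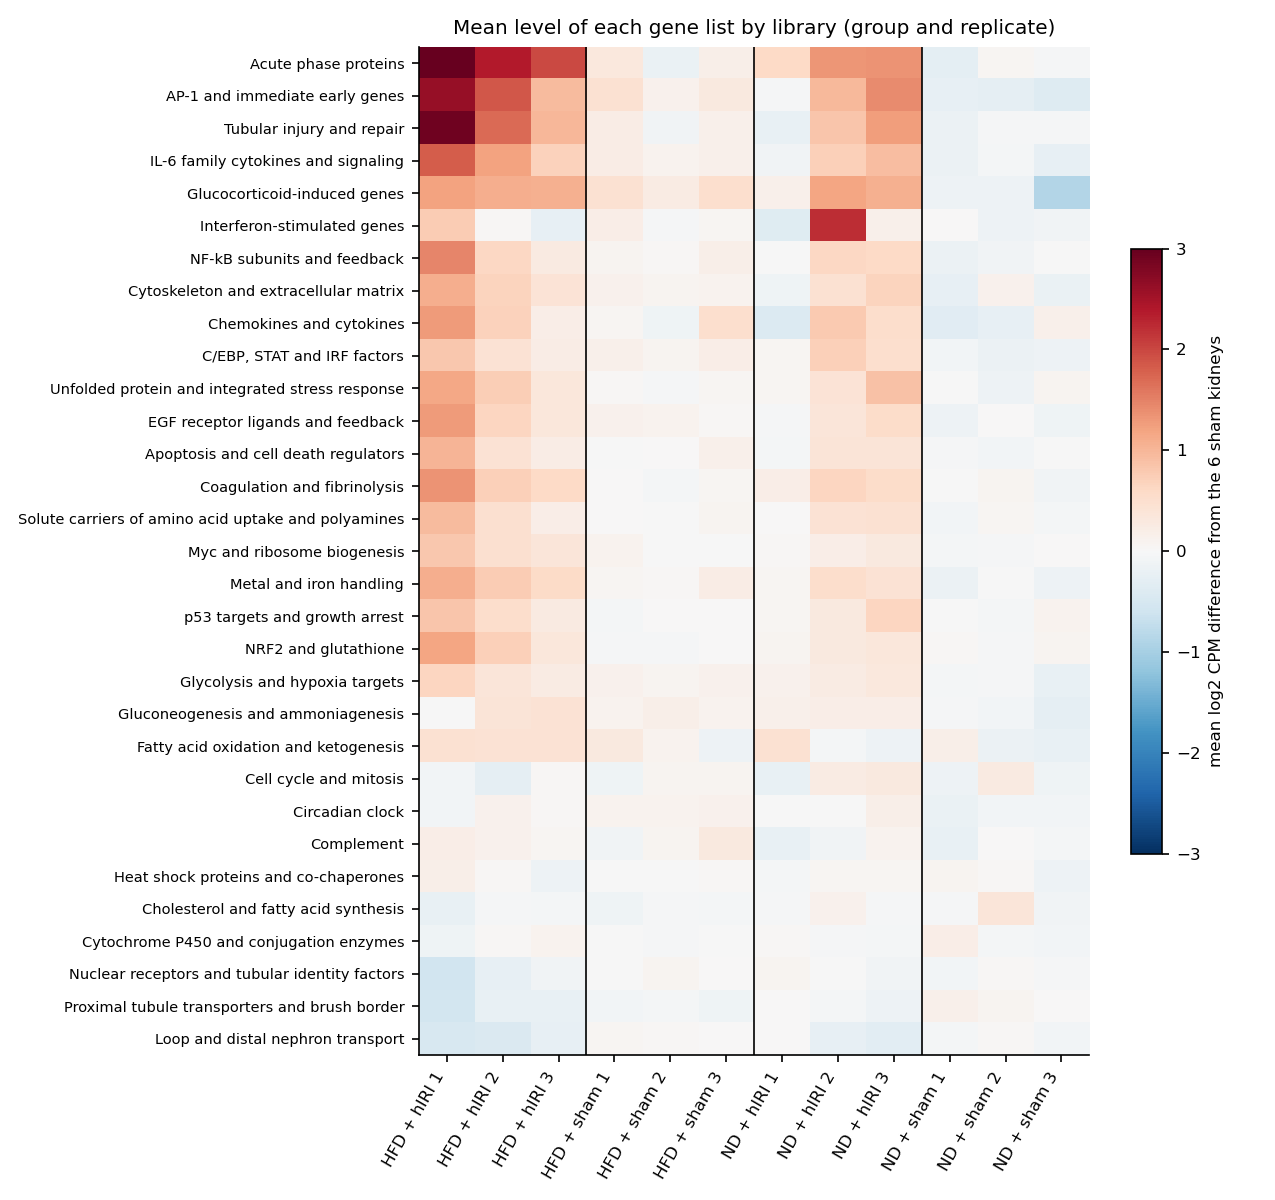
Mean log2 CPM of 31 gene lists in each of the 12 libraries, as the difference from the 6 sham kidneys, with rows for lists, columns for libraries and colours from -3 (blue) to 3 (red), values beyond these ends shown as the end colour. The acute phase, AP-1 and tubular injury rows are red in the 3 HFD + hIRI columns and in ND + hIRI replicates 2 and 3, and the interferon row is strongest in ND + hIRI replicate 2.

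Complement genes were called about as often as all genes or less, with 3 of 30 higher and 1 lower beside 12.9% and 10.9%, and a median log2 fold change of 0.03 that was -0.05 under upper quartile scaling and -0.09 under library totals. Cd59a, an inhibitor of the membrane attack complex, fell, with a log2 fold change of -0.38 (SE 0.06, adjusted p = 0.00714) with no overlap. The coagulation and fibrinolysis list held 12 of 34 members higher and 3 lower, with a median log2 fold change of 0.36. With the library number run as a covariate 7 were higher and 3 lower. The fibrinogen chains were among those that rose. F8, coagulation factor VIII, fell, with a log2 fold change of -0.77 (SE 0.12, adjusted p = 0.00609) with no overlap. Of cytoskeleton and matrix genes 21 of 49 rose and 2 fell, with Tubb6 and Tagln2 higher without overlap at a log2 fold change of 1.93 and 1.11. Of carriers of amino acid uptake and polyamine genes 11 of 28 rose and 2 fell. Sat1, the polyamine acetyltransferase, rose by a log2 fold change of 1.22 (SE 0.22, adjusted p = 0.00888). Slc38a3, a glutamine carrier of the gluconeogenesis and ammoniagenesis list, rose by 1.35 (SE 0.22, adjusted p = 0.00696).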

How the data were processed

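Kidney mRNA of 12 mice was sequenced, 3 mice in each of 4 groups, and each library was taken as 1 mouse. Groups were read from the sample labels. Per the submitters' processing notes the authors used FastQC 0.11.5, STAR 2.7.10a, featureCounts of Subread 2.0.3 and edgeR 3.42.4 on mm10. The annotation, the use of strand and the filter that left 14091 genes were not given in the sources used here, so overlapping and antisense genes and near-identical copies are uncertain. The values used were the deposited raw read counts per gene, which the authors had not normalized. The normalized log2 values, fold changes and p-values that the authors deposited beside the counts hold their own comparisons and were not used. The members of the comparison and the gene lists were chosen with earlier results of these data known.

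The counts were fitted with edgeR 4.0.16 in R 4.3.3 (filterByExpr, which removed 0 genes, TMM scaling, 1 mean per group, robust quasi-likelihood F tests), with Benjamini-Hochberg adjustment over 14091 genes and a threshold of 0.05. CPM values use TMM library sizes, a fold change is on the log2 scale, and a standard error is the log2 fold change divided by the square root of F. The fits were tested on simulated data. Alternatives were other scalings, filters, limma 3.58.1 and DESeq2 1.42.0, a replicate block, the library number run as a covariate or on its own, leaving out each library and stricter thresholds. Leaving out both hIRI libraries numbered 1 was chosen after seeing the data. Totals of 20874584 to 29451344 reads per library set the precision. Genes were named by a fixed rule: the 12 largest changes per direction at a mean log2 CPM of at least 1, the 12 smallest p-values without overlap, up to 5 members per list and direction (the 2 with the smallest p where none was called), the 3 highest markers per marker list and the 6 most even responses per direction. Not all genes that the rule names are described.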

Additional observations from a re-analysis of the deposited data

Results flagged for a closer look

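The test of the difference between diets singled out 2 genes. Fgb responded more strongly on HFD, with a difference of 4.90 (HFD minus ND, log2 scale, standard error 0.61, edgeR quasi-likelihood adjusted p = 0.0461) between a response of 6.67 on HFD and 1.77 on ND, both positive. All 3 HFD + hIRI kidneys and all 3 ND + hIRI kidneys lay above every sham kidney for Fgb. Vdr, the vitamin D receptor, had 179, 157 and 162 CPM in HFD + hIRI kidneys and 389, 368 and 410.4 CPM in ND + hIRI kidneys, against 288, 294 and 269 CPM in HFD + sham kidneys and 349.9, 295 and 292 CPM in ND + sham kidneys. Its response was -0.77 on HFD and 0.32 on ND, a difference of -1.09 (standard error 0.14, adjusted p = 0.0461). The HFD + hIRI kidneys lay below all other kidneys and the ND + hIRI kidneys above them all, and over both diets the log2 fold change was -0.23 (adjusted p = 0.0371), a call lost without ND + sham replicates 1 or 3, ND + hIRI replicates 2 or 3, HFD + sham replicates 1 or 2 or HFD + hIRI replicate 2. Vdr was named after its values were seen. When each of the 12 libraries was left out in turn, the call of the difference held 2 times for Fgb and 1 time for Vdr.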

How the results depend on the processing

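The count of 3345 genes over both diets was 5708 with limma voom and quality weights, 1226 with the library number run as a covariate, 4 in the higher run alone, 360 at an adjusted p under 0.01 (216 higher and 144 lower) and 682 at a change of at least 2-fold, and ranged from 1394 to 4968 when 1 library was left out. The count of 2801 on HFD was 4222 with DESeq2, 5836 with quality weights, 18 with the run as a covariate, 23 at an adjusted p under 0.01 and 1003 at 2-fold, and ranged from 1 to 4742. The count of 0 on ND was 340 with the likelihood ratio test, 444 with DESeq2, 696 with quality weights and 2322 without both hIRI libraries numbered 1, and ranged from 0 to 531. The 2 differences between diets were 8 with the likelihood ratio test, 33 with DESeq2, 0 with voom, 4 with quality weights, 0 with the run as a covariate, 7 without both hIRI libraries numbered 1 and 0 at an adjusted p under 0.01, and ranged from 0 to 2. Of the named genes 262 were called, 166 with the run as a covariate, 3 in the higher run alone, 101 at an adjusted p under 0.01 and 134 at 2-fold, with a range of 178 to 259 when 1 library was left out. Of list members 380 were called, 188 with the run as a covariate, 2 in the higher run alone, 73 at an adjusted p under 0.01 and 153 at 2-fold, with a range of 210 to 473. Motif shares at an adjusted p under 0.01 were 2.83% for STAT among genes called lower, 13.2% and 11.3% for C/EBP, 5.03% and 6.60% for AP-1 and 23.3% and 18.9% for the metal response element among genes called higher and lower, 5.66% for CRE and 10.4% for the antioxidant response element among those called lower, and 9.43% for the E-box among those called higher. The cause of these changes was not tested.

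Replicate numbers are shared by the groups but nothing in the labels ties same-numbered mice. Deviations of same-numbered libraries correlated between -0.417 and 0.215 over 18 pairs of libraries, with 6 above 0.1. With a replicate block 2496 genes were called, among them 233 named genes and 318 list members, and 0 differences between diets were called. No called gene changed direction in any setting. Alb, which was not called (0.15 on the log2 scale), was -0.0099 with voom, -0.284 with quality weights, -0.351 without ND + hIRI replicate 1 (0.349 without ND + hIRI replicate 2, the ends of the range over libraries left out), -0.163 in the higher run alone and -0.365 without both hIRI libraries numbered 1, and Umod (0.11) was -0.0059 under library totals and -0.0138 in the higher run alone.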
